A study of Mus musculus with 43 samples.

Results

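The Frizzled genes encode the 10 membrane receptors of mouse Wnt proteins, Fzd1 to Fzd10. They were taken from the deposited gene tables by matching gene identifiers to symbols, and all 10 members had a row among the 56941 gene identifiers in each table. RNA sequencing covered 43 libraries of sorted mouse bone marrow in 7 groups. Transplanted mice were wild-type CD45.1 animals that had received 5000000 JAK2V617F whole marrow cells carrying CD45.2 without conditioning (BMT, bone marrow transplant). Control mice were wild-type CD45.1 animals of matched age and sex that were not transplanted.

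About 7 months after transplantation, the same animals gave BMT stroma (n = 7, 4 males and 3 females) and control stroma (n = 8, 4 of each sex), sorted for the absence of CD45.1, CD45.2 and of B220, NK1.1, Ter119, CD11b, CD4, CD8 and Ly-6G/Ly-6C. They also gave donor CD45.2 cells (n = 7) and host CD45.1 cells (n = 7) of the transplanted mice and CD45.1 cells of the control mice (n = 8). Other male mice, taken 52 weeks after transplantation, gave CD11b cells gated on CD45.1 from BMT mice (n = 3) and control mice (n = 3). JAK2V617F is the activating kinase mutation of myeloproliferative neoplasms. The labels used here give neither the promoter that drives the mutant allele nor the age of the mice. No mice received normal marrow, so the mutation, the act of transplantation and the CD45 type of the graft cannot be told apart.

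Frizzleds bind secreted Wnt proteins through a cysteine-rich outer domain. With the co-receptors Lrp5 and Lrp6 they engage Dishevelled proteins, which stop the destruction of beta-catenin, and with other partners they steer planar cell polarity or calcium signalling. By sequence the mouse receptors fall into the subgroups Fzd1, Fzd2 and Fzd7, Fzd5 and Fzd8, Fzd4, Fzd9 and Fzd10, and Fzd3 and Fzd6. In bone, Wnt signalling drives osteoblast differentiation, and mice lacking Fzd9 have low bone mass.

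Assigned reads per library numbered 41210646 to 63970034 in BMT stroma and 50733339 to 143228988 in control stroma. They numbered 16343361 to 19683698 in donor, 16302572 to 19048243 in host and 15713119 to 18560231 in control CD45.1 cells. CD11b libraries had 32478800 to 44853593 in BMT and 35526852 to 42976716 in control mice. Stroma markers checked the labels: the summed level of 8 osteoblast genes was 2519 to 14500 TPM (transcripts-per-million, a level per transcript length) in BMT stroma and 4724 to 14680 TPM in control stroma, and at most 4.98 TPM in any CD45-sorted or CD11b group. The stroma sorts were not free of blood cells, since Ptprc, which encodes CD45, had 15.1 to 91.9 TPM in BMT stroma and 18.2 to 84.0 TPM in control stroma. The BMT stroma library of mouse N032, which was killed on a later day than every other mouse that gave stroma, stood apart. It had the lowest sums of the LepR stroma, osteoblast, endothelial, myeloid, B-cell and megakaryocyte markers among the BMT stroma libraries. Without N032 the lowest sums in BMT stroma were 8016 TPM for osteoblast, 920.2 TPM for LepR stroma and 446.8 TPM for megakaryocyte markers, and Frizzled values that rest on that library are given with and without it. The donor library of mouse N204 is called donor by its title and recipient-derived by another label, and it was kept in the donor group. In bulk libraries, fewer cells of a type and less RNA per cell cannot be told apart.

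Marrow stroma was where most Frizzled transcripts were read. The 10 genes together had 11.3 to 45.8 TPM in BMT stroma (median 29.6) and 44.6 to 92.1 TPM in control stroma (median 57.8). The lowest BMT stroma sum was that of N032, and without it the lowest was 19.7 TPM. The sum was 10.3 to 15.3 TPM in donor, 14.02 to 19.06 TPM in host and 9.55 to 17.1 TPM in control CD45.1 cells. CD11b cells had the lowest sums, 2.9 to 4.4 TPM in BMT and 2.44 to 3.05 TPM in control mice. Sums of the BMT and control stroma libraries overlapped narrowly.

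Which receptor led the family differed by cell source. In control stroma Fzd9 had the highest median, 27.8 TPM, and it exceeded Fzd4, the next gene at 9.48 TPM, in 8 of 8 libraries. In BMT stroma Fzd4 led with a median of 9.76 TPM and exceeded the next gene by median, Fzd1, in 7 of 7 libraries, followed by Fzd9 at 3.54 TPM. Library by library, Fzd4 was the highest member in 4 of 7 BMT stroma libraries, Fzd9 in 2 and Fzd6 in 1. Fzd4 is the receptor of the ligand Norrin in retinal vessels, where it acts with Tspan12. In donor, host and control CD45.1 cells Fzd5 led in every library, with 47.3% to 55.7% of the summed Frizzled TPM in donor, 50.96% to 57.28% in host and 53.0% to 60.5% in control CD45.1 cells. Fzd7 came next there in every library of these 3 groups. In CD11b cells Fzd7 had the largest median share, with 45.5% to 63.4% in BMT mice and 33.6% to 54.5% in control mice.

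**Figure D1:**
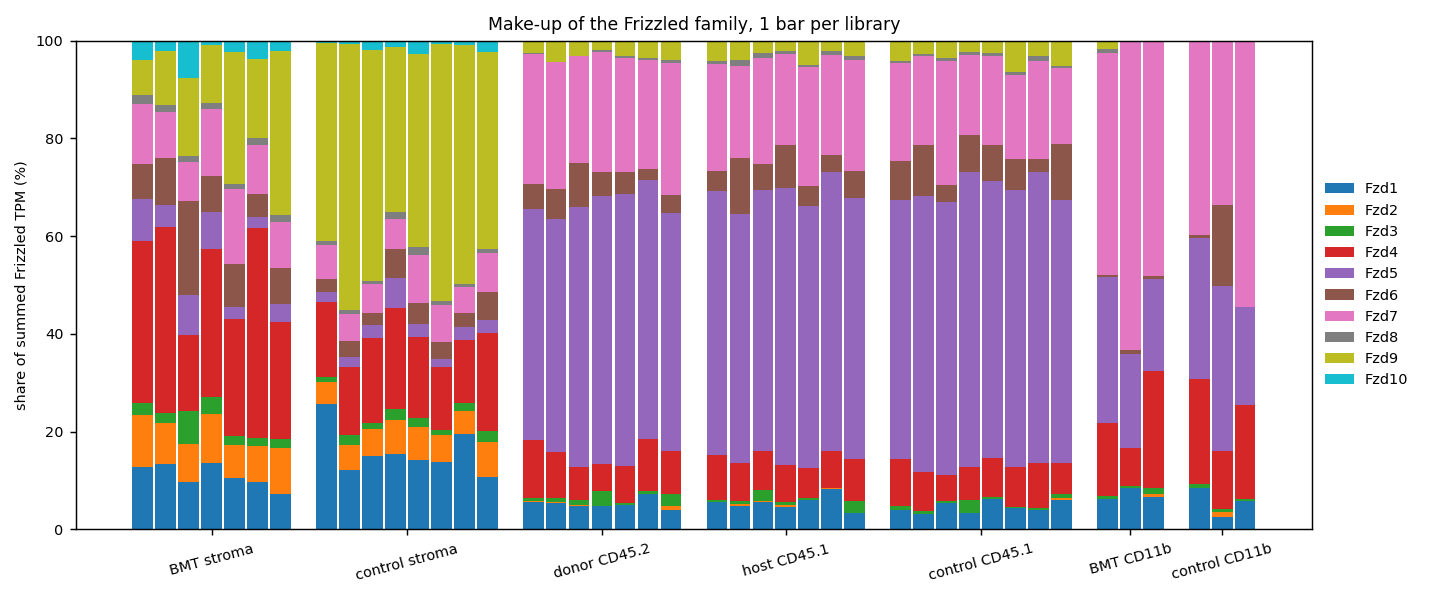
Share of each of the 10 Frizzled genes in their summed TPM (%), 1 bar per library, grouped by cell source. Fzd9 took 7.03% to 33.6% in BMT stroma and 33.7% to 54.5% in control stroma, and Fzd5 took 47.3% or more in every CD45.1 and CD45.2 library.

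Fzd9 was the gene with the widest range. Its level was 11.08, 9.96 and 7.39 TPM in the 3 female BMT stroma libraries and 3.54, 2.31, 2.07 and 1.8 TPM in the 4 male ones. In control stroma it was 48.3, 30.8, 19.2 and 18.0 TPM in females and 41.1, 31.0, 24.8 and 16.2 TPM in males. Every BMT stroma library lay below every control stroma library, and the highest BMT value came from mouse N204. Donor cells had 0.25 to 0.6 TPM (median 0.41), host cells 0.29 to 0.75 TPM (median 0.56) and control CD45.1 cells 0.26 to 1.08 TPM (median 0.575). The CD45-sorted groups overlapped one another and lay below all stroma libraries. In CD11b cells Fzd9 had 4 counts in 1 of 3 BMT libraries and 0 counts in the other BMT libraries and in all 3 control libraries.

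Fzd1, a member of the subgroup with Fzd2 and Fzd7, had 4.39, 4.31, 4.24, 3.74, 2.67, 2.14 and 1.1 TPM in BMT stroma, the last in N032, without which the lowest was 2.14 TPM. In control stroma it had 19.6, 12.6, 12.4, 9.07, 7.87, 7.43, 6.89 and 4.75 TPM. The groups did not overlap, but the highest BMT value and the lowest control value lay close together. The highest control value belonged to N002, the most deeply sequenced library. In CD45-sorted cells Fzd1 stayed at 0.59 to 0.86 TPM in donor (median 0.73), 0.6 to 1.15 TPM in host (median 0.85) and 0.29 to 0.95 TPM in control CD45.1 cells (median 0.695), and in CD11b cells at 0.18 to 0.37 TPM in BMT and 0.07 to 0.26 TPM in control mice. Ordered by median, neighbouring groups overlapped apart from the 2 stroma groups.

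**Figure D2:**
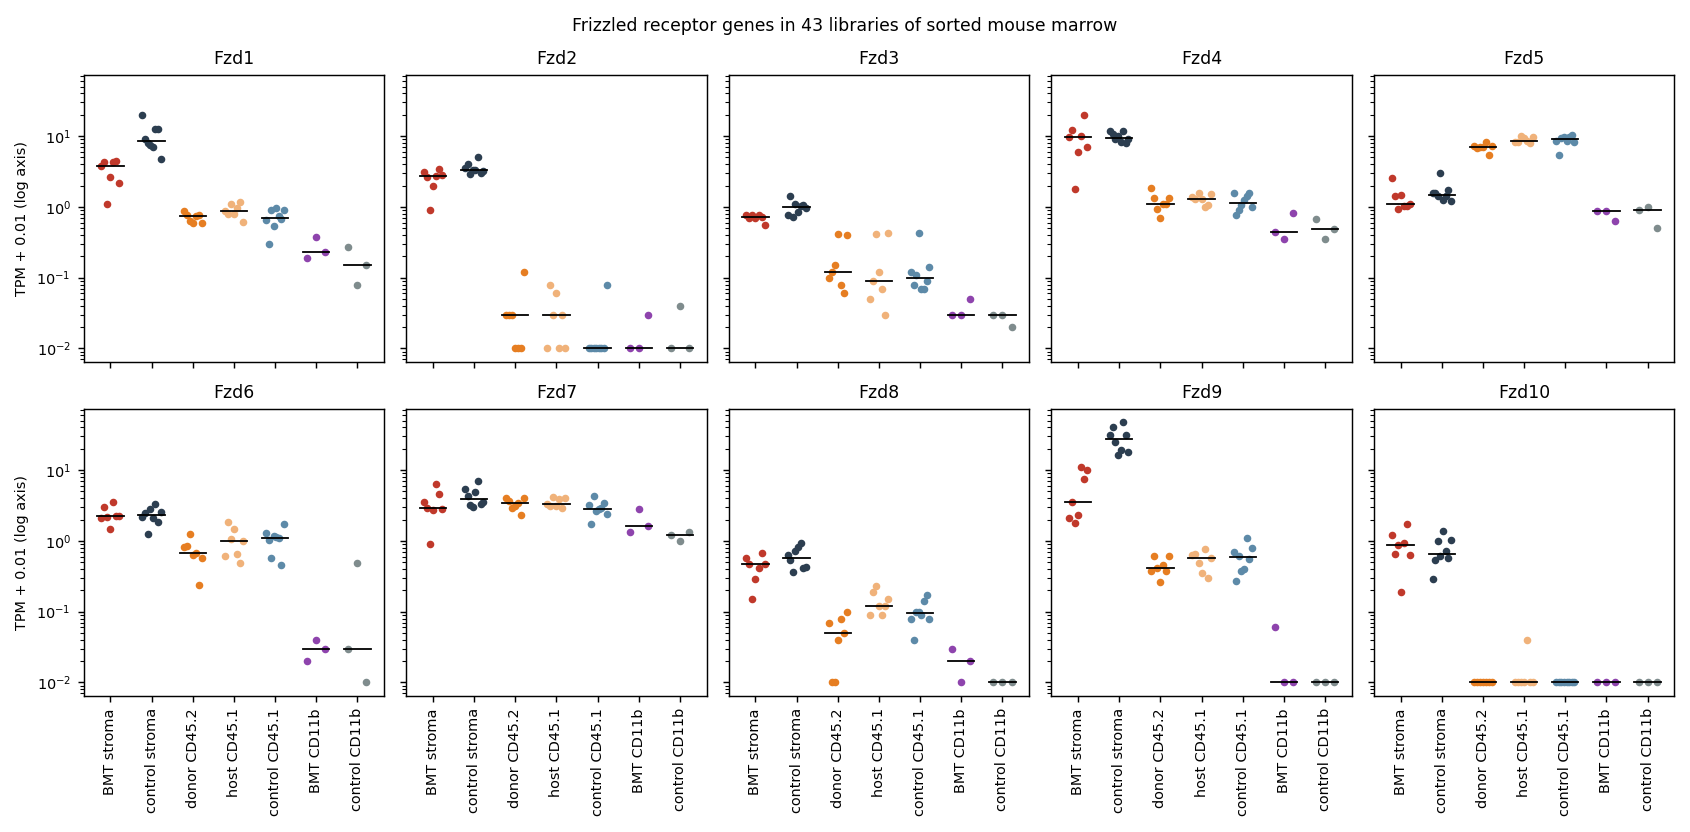
TPM plus 0.01 (log axis) of each Frizzled gene in 43 libraries, 1 point per library, with the group median as a line. Fzd9 in BMT stroma (1.8 to 11.08 TPM) lies below control stroma (16.2 to 48.3 TPM), Fzd5 is highest in the donor CD45.2, host CD45.1 and control CD45.1 groups and lowest in CD11b cells, and Fzd10 has 0 or 1 count in every library outside stroma.

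The promoter-side sequences of these genes are shown because Fzd9 and Fzd1 differed between the stroma groups while Fzd5 was highest in the CD45.1 and CD45.2 sorts. RefSeq (GRCm38.p6) entries matched 6 of the 10 genes: Fzd1, Fzd4, Fzd5, Fzd7, Fzd9 and Fzd10. Each line gives the 250 bases before the annotated start, 5′ to 3′ on the gene's strand, which is the minus strand for all 3. Capitals mark matches to 4 motifs searched on both strands, none overlapping another here. The GC box is GGGCGG. The TATA box is TATAAA. The CCAAT box is named by its letters. The LEF/TCF core is CTTTGA.
Fzd9, chr5:135251048-135251297: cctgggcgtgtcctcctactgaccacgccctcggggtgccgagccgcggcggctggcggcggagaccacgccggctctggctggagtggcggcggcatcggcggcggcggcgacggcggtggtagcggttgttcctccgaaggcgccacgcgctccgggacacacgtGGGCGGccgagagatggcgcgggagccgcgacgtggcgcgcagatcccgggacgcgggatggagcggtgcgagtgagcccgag
Fzd1, chr5:4758217-4758466: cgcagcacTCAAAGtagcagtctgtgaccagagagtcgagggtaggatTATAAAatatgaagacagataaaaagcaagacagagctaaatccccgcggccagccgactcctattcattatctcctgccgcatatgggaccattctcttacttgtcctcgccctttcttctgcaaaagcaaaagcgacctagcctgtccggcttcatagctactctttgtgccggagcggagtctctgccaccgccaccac
Fzd5, chr1:64737751-64738000: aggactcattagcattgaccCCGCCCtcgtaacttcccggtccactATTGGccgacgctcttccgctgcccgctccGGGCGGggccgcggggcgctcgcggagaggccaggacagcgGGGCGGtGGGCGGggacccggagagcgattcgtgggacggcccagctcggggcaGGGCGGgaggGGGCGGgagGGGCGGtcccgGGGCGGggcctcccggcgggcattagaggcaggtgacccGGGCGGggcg
The Fzd9 window held 1 GC box, 83 bases before the start, and 42 CG pairs, and 99.1% of the 32851 windows of the same length held fewer CG pairs (median 6). The Fzd5 window held 9 GC boxes, 1 CCAAT box in the reverse orientation and 32 CG pairs, with fewer in 95.4% of windows. The Fzd1 window held no GC box, a TATA box letter match 202 bases before the start, a LEF/TCF core match 242 bases before it and 12 CG pairs, with fewer in 66.5% of windows. A GC box occurs in 32.7% of all windows, TATAAA in 12.4%, the CCAAT box in 33.8% and the LEF/TCF core in 13.8%. GC boxes numbered 7 for Fzd4, 6 for Fzd7 and 1 for Fzd10. A letter match is a description and not a binding site.

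The remaining stroma members did not separate BMT from control libraries. Fzd4 had 1.76 to 19.7 TPM in BMT stroma (median 9.76) and 8.06 to 11.9 TPM in control stroma (median 9.48), so the BMT range enclosed the control range. Fzd2, which shares Fzd1's subgroup, had 0.885 to 3.45 TPM in BMT stroma (median 2.72) and 2.91 to 5.13 TPM in control stroma (median 3.34). Fzd7, known as a receptor of intestinal stem cells, had 0.905 to 6.3 TPM in BMT stroma (median 2.95) and 3.01 to 6.89 TPM in control stroma (median 3.91). The lowest BMT value of Fzd2, Fzd4 and Fzd7 was that of N032 in each case. Without that mouse the lowest BMT values were 1.97 TPM for Fzd2, 5.98 TPM for Fzd4 and 2.7 TPM for Fzd7.

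Fzd3 and Fzd6 are the planar-polarity receptors that orient hairs and guide axons. Fzd6 had 1.45 to 3.58 TPM in BMT stroma and 1.25 to 3.26 TPM in control stroma. Fzd3 had 0.54 to 0.765 TPM in BMT stroma and 0.71 to 1.43 TPM in control stroma. Fzd8, the partner of Fzd5 by sequence, had 0.14 to 0.665 TPM in BMT stroma and 0.355 to 0.93 TPM in control stroma, and its lowest BMT value without N032 was 0.275 TPM. The stroma groups overlapped for all 3 genes. Fzd10 had 0.18 to 1.7 TPM in BMT stroma and 0.28 to 1.36 TPM in control stroma, also with overlap. Outside stroma Fzd4 and Fzd6 were the better read of these members. Fzd4 had 0.69 to 1.81 TPM in donor, 0.98 to 1.55 TPM in host and 0.76 to 1.57 TPM in control CD45.1 cells, and Fzd6 had 0.23 to 1.22 TPM in donor, 0.48 to 1.86 TPM in host and 0.44 to 1.72 TPM in control CD45.1 cells. Fzd8 reached 0.09 TPM in donor, 0.22 TPM in host and 0.16 TPM in control CD45.1 cells. The CD45-sorted groups overlapped one another for each of these genes. Their Fzd4 and Fzd8 levels lay below every stroma library but that of N032, and their Fzd6 levels overlapped the stroma range. Per-library levels of Fzd3 in CD45-sorted cells fell into 2 sets that counts did not follow: 5 of 22 libraries had 0.39 to 0.42 TPM from 5 to 18 counts, and 17 had 0.02 to 0.14 TPM from 4 to 21 counts.

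Whether the JAK2V617F graft was accompanied by changes in Wnt receptors of the stroma was read from BMT against control stroma, in 7 against 8 mice. Of 26191 genes tested, 391 changed at an adjusted p below 0.05 (1.49%), with 0.466% higher and 1.03% lower. All 10 Frizzled genes entered the test. Fzd9 and Fzd1 fell, and the other 8 did not pass the test. The median log2 fold change was -0.27 over the 10 members and 0.04 over all genes tested. The same 2 genes were the members whose TPM ranges did not overlap, both lower in BMT stroma. Of all genes tested, 0.817% lay wholly lower in this way and 0.134% wholly higher.

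Fzd9 averaged 10.2 ± 7.61 CPM (counts-per-million, TMM-scaled) in BMT stroma and 49.4 ± 20.8 CPM in control stroma (SD, n = 7 and 8). Its log2 fold change was -2.52 ± 0.38 (SE), with an adjusted p of 0.00193 by edgeR's quasi-likelihood test. The call held in 15 of 15 fits that left out 1 library each, with log2 fold changes of -2.68 to -2.34 and adjusted p of 0.00132 to 0.00739. Fzd1 averaged 11.2 ± 4.67 CPM in BMT stroma and 32.6 ± 15.9 CPM in control stroma. Its log2 fold change was -1.55 ± 0.34, with an adjusted p of 0.0252 by the same test. The Fzd1 call held in 9 of 15 such fits. It was lost without control N280 (adjusted p = 0.059), N002 (0.0525) or N283 (0.0505), and without BMT N005 (0.0611), N203 (0.0814) or N279 (0.0776), at edgeR log2 fold changes of -1.56 to -1.28.

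Leaving out N032 gave log2 fold changes of -2.37 for Fzd9 (edgeR adjusted p = 0.0023) and -1.42 for Fzd1 (adjusted p = 0.016), with 593 genes called in all. Scaling left both directions as they were, at -2.53 for Fzd9 and -1.56 for Fzd1 with RLE factors.

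**Figure D3:**
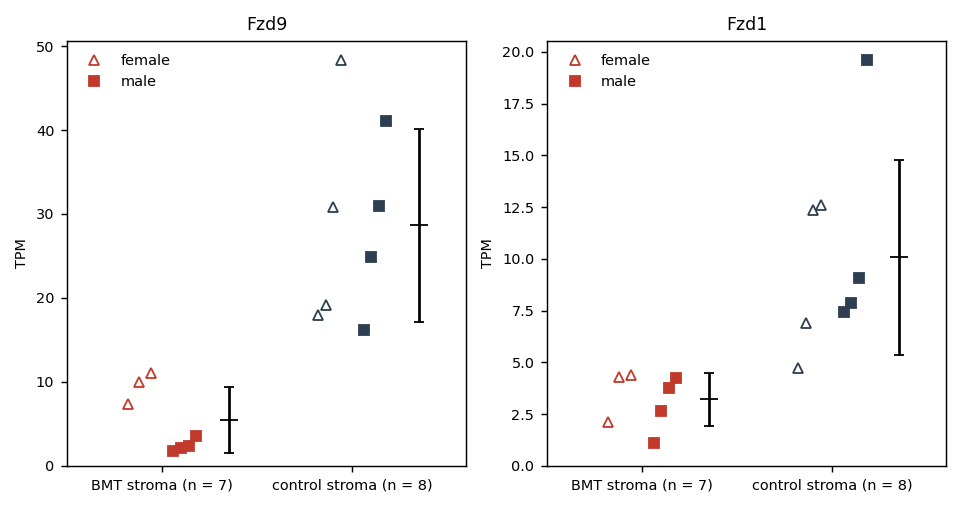
TPM of Fzd9 and Fzd1 in 7 BMT and 8 control stroma libraries, with females as open triangles, males as filled squares and the bar as mean ± SD. All BMT values lie below all control values for each gene, and BMT females (7.39 to 11.08 TPM for Fzd9) lie above BMT males (1.8 to 3.54 TPM).

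These 2 genes held most of the gap in the family sum. Without Fzd9 and Fzd1 the other 8 members summed to 8.42 to 34.1 TPM in BMT stroma (median 23.6) and 19.9 to 31.2 TPM in control stroma (median 23.5). The medians of the reduced sum were nearly level and the BMT range enclosed the control range. Without N032 the lowest reduced sum in BMT stroma was 14.7 TPM, still below the control range. Fzd9 alone made up 7.03% to 33.6% of the Frizzled TPM in BMT stroma (median 15.9%) and 33.7% to 54.5% in control stroma (median 43.9%). These shares met at the edge, with the highest BMT share just under the lowest control share.

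Cell-type markers moved beside these genes. Of 7 erythroid markers, 5 rose in BMT stroma (Hbb-bs, Hbb-bt, Hba-a1, Hba-a2 and Alas2) and Klf1 and Epor did not pass. Median TPM was lower in BMT than in control stroma for Klf1 (61.7 against 102.2) and Epor (11.1 against 14.6). The sum of the 7 markers, most of it globin transcripts, was 15210 to 116800 TPM in BMT stroma and 2405 to 10590 TPM in control stroma, without overlap. Within BMT stroma the 2 libraries with the lowest erythroid sums were N204, at 15210 TPM with the highest Fzd9 level of 11.08 TPM, and N032, at 16040 TPM with the lowest Fzd9 level of 1.8 TPM. The library with the highest erythroid sum, N203, had 2.31 TPM of Fzd9 and 2.67 TPM of Fzd1. None of the 8 LepR stroma markers, 8 osteoblast markers, 8 endothelial markers or 6 megakaryocyte markers passed the test, with median log2 fold changes of -0.35, -0.10, -0.38 and 0.93. LepR markers summed to 549 to 2790 TPM in BMT stroma and 809 to 4757 TPM in control stroma, endothelial markers to 43.3 to 99.9 TPM in BMT and 61.3 to 113 TPM in control stroma, and no marker of these lists was at 0 throughout either group. The part of these cell types in the Fzd9 and Fzd1 values was not tested.

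The fall of Fzd9 was read in each sex. In males alone, 4 against 4, its log2 fold change was -3.47 (edgeR adjusted p = 0.0206). In females alone, 3 against 4, it was -1.52 (adjusted p = 0.382), and 0 of 25737 genes passed by edgeR in that fit, with 1365 at an unadjusted p below 0.05. The difference between the sexes was tested as an interaction, in which 0 of 26191 genes passed (0.0%) by edgeR, 745 had an unadjusted p below 0.05 and DESeq2 called 1. For Fzd9 the interaction was 1.92 ± 0.53 on the log2 scale, with an unadjusted p of 0.00238 and an adjusted p of 0.98 in edgeR. On simulated counts this fit recovered 3% of genes changed by 1 log2 unit and 26% of those changed by 2. A sex difference of this size could therefore be missed. Fzd9 levels of BMT females and BMT males did not overlap, while control females (18.0 to 48.3 TPM) and control males (16.2 to 41.1 TPM) did. The share of all genes that separated the sexes in this way was not computed, so nothing is concluded from it. Fzd1 in males alone had a log2 fold change of -1.88 (edgeR adjusted p = 0.189) and in females alone -1.25 (adjusted p = 0.643). Over all stroma libraries, female against male, 96 genes passed (0.367%) and no Frizzled gene was among them. The nearest was Fzd9 at 1.00 ± 0.36 (edgeR adjusted p = 0.23).

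The final donor chimerism in blood, which the labels give without a unit, lay between 0.63 and 5.99 among BMT mice. No gene had a slope on its log2 that passed in BMT stroma, 0 of 31105 by edgeR (0.0%), with 1227 at an unadjusted p below 0.05 and 16 called by DESeq2. All 10 Frizzled genes had an adjusted p of 1.0. Fzd9 had a slope of 0.23 ± 0.17 and Fzd1 one of 0.27 ± 0.23 per doubling of chimerism (edgeR, 7 mice).

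The transplant effect in stroma was then set against that in CD45.1 cells of the same mice in 1 fit. Of 22991 genes 619 differed (2.69%), 248 higher in stroma and 371 lower. Fzd1 and Fzd9 were the Frizzled genes among them. The effect on Fzd1 was lower in stroma by a log2 difference of -1.88 ± 0.42 (edgeR adjusted p = 0.00853), and that on Fzd9 by -2.26 ± 0.53 (adjusted p = 0.0126). The other 8 members did not pass.

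**Figure D4:**
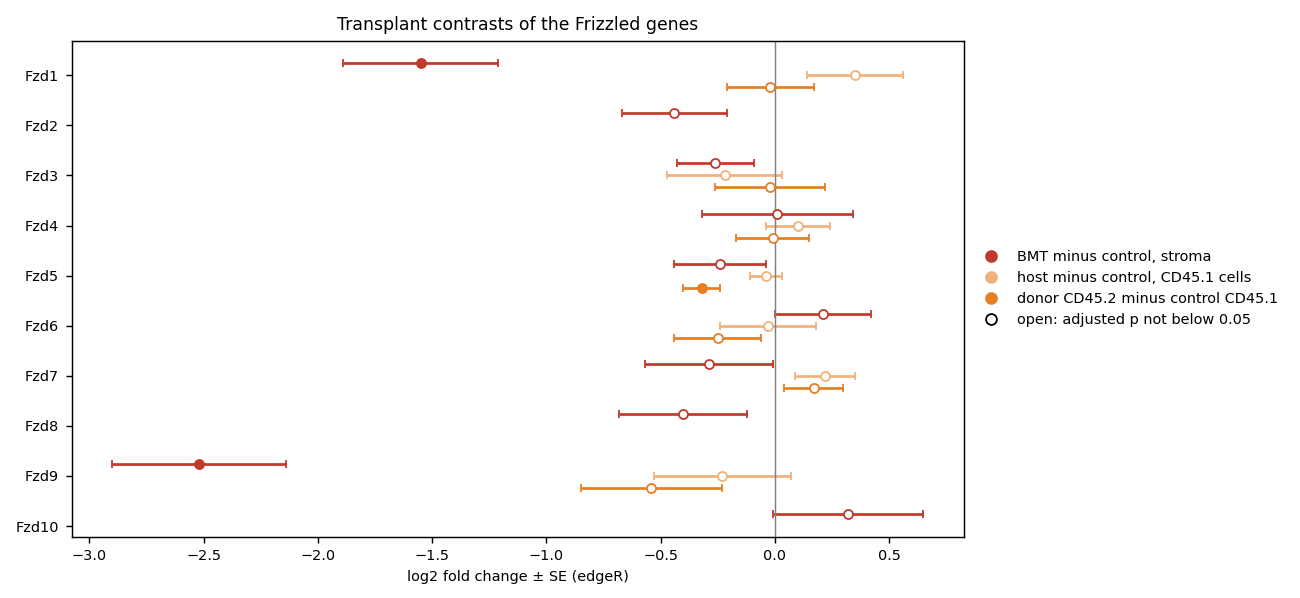
Log2 fold change ± SE (edgeR) of each Frizzled gene in stroma (BMT minus control), host CD45.1 and donor CD45.2 cells (each minus control CD45.1), with filled points at an adjusted p below 0.05. Fzd9 at -2.52 and Fzd1 at -1.55 in stroma and Fzd5 at -0.32 in donor cells are filled, and members not tested in the CD45 sorts have a stroma point only.

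Stroma was compared with CD45.1 cells of the same mice to place each receptor. Stroma and CD45.1 libraries were made with different kits, so kit and cell source cannot be told apart. In control mice 17772 of 19824 genes passed (89.6%), 53.3% higher and 36.3% lower in stroma, with a median log2 fold change of 0.53 over all genes. Of the Frizzled genes 8 were higher in control stroma than in control CD45.1 cells, Fzd5 was lower and Fzd7 did not pass. In transplanted mice 16540 of 19451 genes passed between BMT stroma and host CD45.1 cells (85.0%), 51.1% higher and 34.0% lower, and the Frizzled split was again 8 higher, 1 lower and 1 not passing. With so large a background share, these counts say little about the family. The median over the 10 members was 3.04 in control mice and 2.27 in transplanted mice, against 0.53 and 0.52 over all genes. These medians include Fzd2, Fzd8 and Fzd10, whose low counts kept them out of the tests among CD45-sorted cells. Those genes entered here through stroma, so their direction followed from the filter, and the medians are no support for a family trait. For members near 0 in CD45.1 cells the sizes depended on the setting, though each call held. Over 7 other settings in control mice, Fzd10 ran from 0.79 to 9.5 and Fzd2 from 2.16 to 8.75. Fzd3 ran from 0.81 to 3.62 and Fzd8 from 0.54 to 3.04.

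Fzd2 and Fzd10 were nearly confined to stroma in these libraries. Fzd2 had 2962 counts over the 7 BMT stroma libraries and 7 over the 7 host libraries, a CPM ratio of 136 (exact 95% interval 65.8 to 338). In control mice it had 5753 counts in stroma and 3 in CD45.1 cells, all 3 in mouse N288, a ratio of 484 (165 to 2350). Fzd10, a relative of Fzd9 and Fzd4 by sequence, had 942 counts in BMT stroma and 1 in host cells, a ratio of 302 (54.1 to 12000). In control mice it had 1033 counts in stroma and 0 in 8 CD45.1 libraries. With a floor of 3 counts over the group in place of 0, the ratio was 86.9, which is not an interval bound. Pooled, that was 1.87 CPM in stroma against an exact upper 95% limit of 0.0264 CPM in CD45.1 cells. The exact intervals and this limit cover counting error only.

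Fzd9 was higher in BMT stroma than in host cells by a log2 fold change of 3.13 ± 0.36 and in control stroma than in control CD45.1 cells by 5.45 ± 0.33 (edgeR adjusted p = 8.57e-07 and 1.34e-11). Fzd1 was higher by 1.80 ± 0.30 in transplanted and 3.67 ± 0.30 in control mice (adjusted p = 4.47e-05 and 1.07e-09). In BMT stroma over host cells Fzd3 at 3.24, Fzd4 at 2.74, Fzd8 at 1.77 and Fzd6 at 1.38 passed too. In control stroma over control CD45.1 cells these genes were at 3.26, 2.83, 2.71 and 1.14. TPM ranges did not overlap for 5 members higher in BMT stroma and 1 lower (7 and 1 without N032), where 39.9% and 21.4% of all genes did the same, and for 7 higher and 1 lower in control mice, where 46.1% and 20.9% did.

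Fzd5, which in mice is needed for Paneth cell maturation, was the member that ran the other way. It had 0.925 to 2.51 TPM in BMT stroma (median 1.07) and 8.03 to 10.2 TPM in host cells (median 8.51). In control mice it had 1.19 to 3.0 TPM in stroma and 5.39 to 10.2 TPM in CD45.1 cells (median 8.98). Neither pair of groups overlapped. The log2 fold changes were -2.67 ± 0.18 for BMT stroma over host and -2.54 ± 0.16 for control stroma over control CD45.1 cells (edgeR adjusted p = 1.58e-09 and 2.35e-11). Fzd5 overlaps the antisense gene Gm38058, which had 0 to 8 counts in CD45-sorted libraries and 9 to 240 in stroma. The strand setting of the counting is not given in the sources used here, so reads of the overlap cannot be told apart.

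Fzd7 was near level between sorts. It had 2.88 to 4.11 TPM in host and 1.74 to 4.26 TPM in control CD45.1 cells, overlapping the stroma ranges above. Its log2 fold change was -0.22 ± 0.26 in transplanted mice (edgeR adjusted p = 0.422) and 0.31 ± 0.19 in control mice (adjusted p = 0.139). The sign in transplanted mice turned with library totals as the scale, at 0.05 (adjusted p = 0.84). The control-mouse comparison of Fzd7 passed with library totals as the scale, at 0.65 (adjusted p = 0.00184), and on log2(TPM + 1), at 0.43 (limma adjusted p = 0.0184). It also passed in edgeR when control CD45.1 N093 or control stroma N093, N208, N288 or N283 was left out, at 0.42 to 0.45.

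Among blood cells, host against control CD45.1 cells gave 2312 of 14073 genes (16.4%), or 850 when blocked by day of euthanasia. Low counts left 7 Frizzled genes in the test, without Fzd2, Fzd8 and Fzd10, and 0 of 7 passed in edgeR or DESeq2, with 0 at an unadjusted p below 0.05. The median log2 fold change was -0.03 over the 7 and 0.01 over all genes. Fzd5 had 8.03 to 10.2 TPM in host cells and 5.39 to 10.2 TPM in control CD45.1 cells, where N051 was the lowest. Without control N093, Fzd7 passed at 0.33 (edgeR adjusted p = 0.0436), and with all libraries it was 0.22 (0.255).

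In donor against control CD45.1 cells 6360 of 13906 genes passed (45.7%, with 23.0% lower), and Fzd5, lower in donor cells, was the 1 of 7 Frizzled genes tested that did. Fzd5 had 5.47, 6.66, 6.94, 7.1, 7.21, 7.31 and 8.23 TPM in donor cells, against 5.39, 8.11, 8.6, 8.63, 9.33, 9.56, 9.68 and 10.2 TPM in control CD45.1 cells. The groups overlapped through the lowest control library, N051, and the highest donor library, N204. In counts it averaged 31.7 ± 2.97 CPM in donor cells and 39.7 ± 4.28 CPM in control CD45.1 cells (SD, n = 7 and 8), a log2 fold change of -0.32 ± 0.08 (edgeR adjusted p = 0.00234). On TPM the same gene did not pass, at -0.26 on log2(TPM + 1) (limma adjusted p = 0.0934) and -0.29 on log2(TPM + 0.1) (0.101), nor in males alone, at -0.28 (edgeR adjusted p = 0.104).

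Within transplanted mice, donor against host cells gave 1928 of 13662 genes (14.1%, with 9.94% lower), or 4605 with the animal as a block. Fzd5 was again the 1 of 7 members that passed, at 32.02 ± 3.05 CPM in donor and 38.96 ± 3.01 CPM in host cells, a log2 fold change of -0.28 ± 0.07 (edgeR adjusted p = 0.0108, or 0.000854 with the animal block). TPM of Fzd5 was lower in donor than in host cells of all 7 mice, such as 5.47 against 8.03 TPM in N269 and 8.23 against 8.51 TPM in N204. Both comparisons use the same donor libraries, so their Fzd5 values are not independent of each other. B-cell markers fell in donor cells, 8 of 8 against control (median log2 fold change -5.24) and 8 of 8 against host (-3.97). T and NK markers fell for 7 of 8 in each (medians -3.68 and -3.28). Summed B-cell markers were 13.7 to 31.7 TPM in donor, 114 to 363 TPM in host and 361 to 716 TPM in control CD45.1 cells. The part of these cells in the Fzd5 values was not tested.

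Without a filter on low counts, Fzd8 passed as well between donor and host cells, at -1.70 (edgeR adjusted p = 0.016). It had 20 counts over 7 donor libraries, with 0 in 2 of them, and 66 over 7 host libraries, with at least 5 in each. The highest TPM values, 0.09 in donor and 0.22 in host cells, rested on 7 and 16 counts, so the result rests on few reads.

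In CD11b cells, 3 BMT against 3 control mice, 0 of 15257 genes passed in edgeR (0.0%), with 2506 at an unadjusted p below 0.05 and 291 called by DESeq2. The filter left Fzd1, Fzd4, Fzd5 and Fzd7. Fzd7 had 1.32, 1.6 and 2.79 TPM in BMT and 0.97, 1.21 and 1.33 TPM in control CD11b cells, with overlap, and a log2 fold change of 0.61 ± 0.26 (edgeR adjusted p = 0.297). Fzd5 had 0.63 to 0.87 TPM in BMT and 0.49 to 0.98 TPM in control, and Fzd4 0.34 to 0.8 TPM in BMT and 0.34 to 0.66 TPM in control cells, both with overlap. Fzd10 had 0 counts in all 6 libraries. The highest Fzd7 value came from BMT mouse N129, which also had the lowest myeloid sum, 192100 TPM, and the highest T and NK sum, 286.8 TPM, of the 6 libraries. Counts and TPM went apart for rare members, with 28 counts of Fzd2 given as 0.02 TPM in BMT N187 and 75 counts of Fzd6 as 0.48 TPM in control N128. Fzd6 overlaps the antisense gene Gm26704, which had up to 36 counts in control CD11b cells and 0 in BMT CD11b cells.

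The rest of the Wnt pathway in stroma was read from 86 further genes in 7 lists. Of these 81 were tested between BMT and control stroma, and 0 passed in edgeR, with 12 at an unadjusted p below 0.05 and 5 called by DESeq2. Of all 26191 genes tested there, edgeR called 1.49%, 7.96% had an unadjusted p below 0.05 and DESeq2 called 2.86%. These 81 had a median log2 fold change of 0.00 against 0.04 over all genes. The smallest p-values were those of Ctnnb1, which encodes beta-catenin, at -0.58 ± 0.16 (adjusted p = 0.101), and Pygo2, a co-activator of beta-catenin, at -0.78 ± 0.22 (0.103). Among ligands Wnt11 had -1.25 ± 0.37 (0.138), among co-receptors Ror2 -0.92 ± 0.28 (0.156) and among inhibitors Notum, an enzyme that cuts the lipid from Wnts, -1.05 ± 0.33 (0.179). Vangl1, a planar-polarity partner, had -0.46 ± 0.16 (0.28), and the R-spondin Rspo4 0.46 ± 0.27 (0.806). Direct targets of beta-catenin, 9 tested, had a median of 0.14, and Axin2, the usual reporter of the pathway, was 4.22 ± 1.07 CPM in BMT and 3.92 ± 0.794 CPM in control stroma (adjusted p = 0.99).

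Levels of the pathway's other members show what surrounds the receptors. Wif1, a secreted trap of Wnts, had 292 ± 134 TPM in BMT stroma and 429.3 ± 168.5 TPM in control stroma, more per length than any Frizzled. Tspan12, the partner of Fzd4, had 29.3 ± 14.5 TPM in BMT and 30.0 ± 7.51 TPM in control stroma. Rspo3, which shields Frizzleds from removal through Lgr receptors and Znrf3, had 10.3 ± 4.39 TPM in BMT and 10.7 ± 2.63 TPM in control stroma, and the ligand Wnt9a 7.15 ± 3.66 TPM in BMT and 7.12 ± 3.30 TPM in control stroma. These genes had the highest mean level in control stroma of their lists and averaged 0.0657 TPM or less in CD45-sorted and CD11b groups. Of the highest genes in the other 3 lists, Csnk1a1 and Myc were well read outside stroma too. The transducer kinase Csnk1a1 had 211 ± 13.7 TPM in BMT stroma and 221 ± 12.7 TPM in control stroma, and averaged 144 TPM in donor, 150.0 TPM in host and 140.0 TPM in control CD45.1 cells. The target Myc had 84.2 ± 20.1 TPM in BMT and 82.7 ± 24.4 TPM in control stroma, and 18.3 TPM in donor, 19.1 TPM in host and 22.5 TPM in control CD45.1 cells. Vangl1 had 4.58 ± 0.906 TPM in BMT and 7.79 ± 2.00 TPM in control stroma, and 0.176 TPM or less in the other groups. Against control CD45.1 cells, control stroma was higher for 12 of 14 secreted inhibitors and 7 of 10 ligands tested, and for 3 of 15 transducers, with 11 of those lower, where 53.3% of all genes tested were higher and 36.3% lower. BMT stroma against host cells gave 12 of 14, 9 of 11 and, for the transducers, 3 higher and 11 lower, beside 51.1% higher and 34.0% lower over all genes. Between host and control CD45.1 cells the filter left only 3 of 16 inhibitors and 2 of 19 ligands, but 13 of 15 transducers. Most inhibitors and ligands thus entered the stroma tests through stroma, so their counts of higher genes were largely set by the filter. Among the inhibitors Wif1 had a log2 fold change of 12.61 and Dkk3 one of 6.77 in control mice, and among the transducers the kinase gene Gsk3a had -4.42, Axin1, which encodes a scaffold of the destruction complex, -3.37 and Dvl1, a Dishevelled gene, -2.52 (all edgeR adjusted p of 1.58e-14 or less).

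The same lists were read in blood cells of transplanted mice. Host against control CD45.1 cells had 1 of 43 tested higher (Apcdd1, 0.71) and 5 lower, among them Lgr5 at -1.34, Tnfrsf19 at -1.21 and Lef1 at -0.94, where 16.4% of all genes were called. This share is near that of all genes and is no result about the lists. Donor against control CD45.1 cells had 2 of 42 higher, Lrp5 at 0.44 and Prickle1 at 0.71, and 21 lower, where 45.7% of all genes were called and 23.0% were lower. Targets of beta-catenin fell for 6 of 7 tested, among them Lef1 at -4.79 and Tcf7 at -3.52, which encode transcription factors of lymphocyte development, Tnfrsf19 at -4.57 and Axin2 at -3.09 (edgeR adjusted p of 3.53e-08 or less). Donor against host cells had 0 of 41 higher and 12 lower, where 14.1% of all genes were called and 9.94% were lower. B-cell markers also fell in host cells, 7 of 8 (median -1.35), and the part of these cells in the list values was not tested.

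Genes whose levels followed a Frizzled most closely over the 43 libraries were picked by the smallest mean absolute difference of log2(TPM + 0.1) from 17987 candidates, each gene centred on its own mean. For Fzd9 they were Tpbg (0.57), which encodes an inhibitor of Wnt signalling, Cdkn1c (0.599), a cell-cycle inhibitor, and Plvap (0.663), an endothelial gene. Tpbg had 4.83 ± 2.57 TPM in BMT stroma and 11.01 ± 5.58 TPM in control stroma, and Cdkn1c 17.0 ± 7.13 TPM in BMT and 63.7 ± 30.0 TPM in control stroma. For Fzd1 they were Fst (0.432), Efnb1 (0.437) and Pard3b (0.451), of which Fst, the activin antagonist follistatin, had 9.1 ± 3.41 TPM in BMT stroma and 33.5 ± 11.1 TPM in control stroma. For Fzd4 they were Sgcb (0.267), Arhgap5 (0.269) and Chd9 (0.273), and Sgcb had 18.7 ± 8.06 TPM in BMT and 19.5 ± 3.79 TPM in control stroma. The 43 libraries share cell sources and kits, so these likenesses describe the levels and carry no p-value.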

How the data were processed

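RNA sequencing counts and TPM were taken from the deposited tables. Per the labels' protocols, CD45-sorted libraries were stranded poly-A libraries, while stroma went through a low-input kit in 2 sequencing runs. Tools named by the submitters' processing notes are STAR 2.7.3a, featureCounts of Subread 1.6.2 and RSEM 1.3.3, with GRCm39. The deposited counts are whole numbers per gene, not normalized by the authors. Deposited TPM columns add up to 1000000 within rounding, and the tool behind them, the annotation, the strand setting and the merging of the 2 runs are not given in the sources used here. Reads shared by overlapping genes cannot be assigned from such counts.

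Groups came from the sample titles, which carry animal numbers. Genes kept by filterByExpr were scaled by TMM and tested with edgeR 4.0.16 in R 4.3.3 (quasi-likelihood F-test, sex as covariate except in the all-male CD11b samples), with Benjamini-Hochberg adjustment over all genes tested and a call at an adjusted p below 0.05. Each fit held the groups compared, and the difference of transplant effects held 4 groups with the libraries of an animal taken as independent. Levels in CPM are TMM-scaled and were computed from the counts, and levels between genes are compared in TPM. DESeq2 1.42.0, limma 3.58.1 on log2(TPM + 1) and log2(TPM + 0.1), other scalings, no filter, blocks, single sexes and leaving out each library were alternatives. Ratios of pooled low counts carry exact 95% intervals, and the floor was 3 counts.

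The Frizzled members and the lists of other Wnt genes and cell-type markers were chosen with earlier results of these data known. A marker left out of the erythroid list is not reported here. Text names all 10 Frizzleds, up to 4 members of each Wnt list with the smallest p, the member of a list with the highest mean TPM in control stroma, and the 3 genes most alike in pattern to Fzd9, Fzd4 and Fzd1 among genes with a mean of at least 1 TPM in some group. Axin2 in stroma and Sfrp4 fall outside that rule and were chosen after their values were seen. Fits were tested on simulated counts with 200 changed genes, and in the BMT against control stroma setting 35% of genes changed by 1 log2 unit and 77% of those changed by 2 were recovered among 25493 genes.

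Animals killed on the same day deviated together from their group means in each of 5 pairs for stroma (correlations 0.16 to 0.639), host (0.242 to 0.324) and donor comparisons (0.168 to 0.319), and libraries of the same mouse did so in 7 of 7 donor and host pairs (0.199 to 0.648). Pairs were weaker between stroma and CD45.1 cells, with 2 of 7 above 0.1 in transplanted and 5 of 8 in control mice, and in CD11b cells with 0 of 5.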

Additional observations from a re-analysis of the deposited data

Results flagged for a closer look

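Tests of the difference between sorts set Fzd1 and Fzd9 apart. The transplant effect in stroma minus that in CD45.1 cells was -1.88 on the log2 scale for Fzd1 and -2.26 for Fzd9, each past an adjusted p of 0.05 in edgeR.

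In 8 of 48 combinations of gene and group, 1 library lay far from the rest of its group. Control CD45.1 cells had 0 counts of Fzd2 in 7 of 8 libraries, and host cells 0 counts of Fzd10 in 6 of 7. In such groups a few reads set a library apart, so no chance rate is set beside the 8. For Fzd5 these were BMT stroma N005 at 2.51 TPM, control stroma N208 at 3.0 TPM and control CD45.1 N051 at 5.39 TPM, the last below its group. N005 and N208 also had the highest LepR stroma marker sums of their groups, 2790 TPM in BMT stroma and 4757 TPM in control stroma, whose part in the Fzd5 values was not tested. For Fzd3 they were BMT stroma N279, the lowest at 0.54 TPM, and control CD45.1 N208, the highest at 0.42 TPM from 12 counts. For Fzd2 they were donor N279 at 0.11 TPM and control CD45.1 N288 at 0.07 TPM, and for Fzd10 host N204 at 0.03 TPM, which rest on 5, 3 and 1 counts.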

How the results depend on the processing

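The lower Fzd9 level in BMT than in control stroma passed in 7 of 8 other settings (log2 fold changes -3.47 to -2.08) and failed in females alone. Fzd1 passed in 6 of 8 and failed in each sex alone. Leaving out 1 library at a time gave 272 to 593 genes in that comparison and 1 to 2 Frizzled genes. DESeq2 called 750 genes there, males alone gave 125 genes with 1 Frizzled gene, and females alone 0 genes with 0 Frizzled genes, where 3 against 4 mice were compared. With the replicate block by day of euthanasia, 295 genes passed in stroma, with Fzd9 at -2.08 (edgeR adjusted p = 0.0216) and Fzd1 at -1.55 (0.0175). The block by day gave 850 genes in host against control cells, and the block by animal 4605 in donor against host cells and 418 in the difference of transplant effects. The blocks changed no call of a Frizzled gene.

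Without a filter on low counts, 33112 genes passed between control stroma and control CD45.1 cells and 32643 between BMT stroma and host cells, because more genes were tested. With library totals as the scale, the share of calls higher in stroma was 65.7% in control mice, against 59.5% with TMM, and the median of all genes 0.89, against 0.53. Leaving out 1 library gave 15986 to 19947 genes with 9 to 10 Frizzled genes in the control comparison.

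Host against control cells gave 1263 and 1229 genes on log2(TPM + 1) and log2(TPM + 0.1), 479 in males alone and 121 in females alone, with 1527 to 2687 genes and 0 to 1 Frizzled genes when 1 library was left out (1527 without host N014, and Fzd7 passing without control N093). Donor against control cells gave 0 Frizzled genes on both TPM scales and in males alone, where 3027 genes passed. Donor against host cells gave 1146 and 1142 genes on the TPM scales and 2 Frizzled genes without a filter. In CD11b cells DESeq2 called 291 genes, no filter 59 and the TPM scales 2 and 3, with 0 to 28 when 1 library was left out (28 without BMT N187, 3 without BMT N129) and no Frizzled gene in any of these. DESeq2 called 708 genes by sex, 1 in the interaction of sex and transplantation and 16 for chimerism. The cause of these shifts in counts was not tested. None of the 24 Frizzled results that passed changed sign in the alternatives run. Of 71 that did not pass, 19 did in at least 1, among them Fzd7 between BMT stroma and host cells, at 0.05 with library totals against -0.22.

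Depth and numbers limit several statements. Outside stroma no library had more than 28 counts of Fzd2, 26 of Fzd8 or 1 of Fzd10. Stroma and blood sorts differ by kit, the CD11b mice are 3 against 3, and the simulated interaction of sex and transplantation recovered 26% of genes changed by 2 log2 units.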

Other observations

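Sfrp4, a secreted Frizzled-related protein that binds Wnts, had a further pattern among blood cells, chosen after its values were seen. It had 0.41 to 1.86 TPM in donor CD45.2 cells (median 0.84), 0.0 to 0.11 TPM in host CD45.1 cells and 0.0 to 0.22 TPM in control CD45.1 cells. Donor libraries did not overlap host or control libraries. The share of all genes whose donor range separated in this way was not computed, so the separation only describes a gene picked for its values. Of the secreted inhibitors that entered the edgeR test, 0 of 3 were called higher in donor than in control CD45.1 cells. Against host cells it was 0 of 2. Sfrp4 was thus not called higher in either comparison, but these counts do not show whether it entered the test at all. The pattern carries no passing test. BMT stroma had 222 to 645 TPM and control stroma 225 to 740 TPM, with overlap. In CD11b cells it was listed at 0 in all BMT libraries and at 0.04 TPM or less in control libraries.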
